A study of Homo sapiens with 4 samples.

Results

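The 42 genes described here encode the lysosome and the autophagy machinery: acid hydrolases, lysosomal membrane proteins, the proton pump, the proteins that build and load autophagosomes, and 2 transcription factors of the TFEB family. They were taken from a table of 57773 genes by matching each gene symbol on a list, and all 42 were found. RNA sequencing compared KMS12PE and KMS11 cells treated with 1 µM OSSL_325096, which the labels name by this code alone, with the same lines given the solvent DMSO. Both lines are established human multiple myeloma lines, and each treatment had 2 libraries, 1 from each line, so that neither line had a replicate of its own. The authors' deposited table gives a fold change of OSSL_325096 over DMSO across both lines. Levels of single libraries were not analysed here, their depth is unknown, and how long the cells were treated is not stated in the labels or the table.

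Lysosomes are acidic organelles in which hydrolases break down proteins, sugars and lipids, and a rotary pump, the vacuolar ATPase, keeps their lumen acid. In autophagy a double membrane closes around cytoplasm, protein aggregates or organelles, and the resulting autophagosome fuses with a lysosome. TFEB and TFE3 are transcription factors that bind a DNA motif in the promoters of many lysosomal genes and are held inactive by the kinase mTORC1. Myeloma cells are malignant plasma cells, which secrete large amounts of antibody and are known to use autophagy alongside the proteasome to dispose of misfolded protein.

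The deposited fold changes of lysosome and autophagy transcripts were small and mostly just below 0. Across the 42 genes, log2 fold changes in the authors' deposited table ran between -0.64 and 0.44, with a median of -0.08, while the median of all 11324 genes with a mean of at least 1 RPKM was 0.01. RPKM scales the reads of a gene by transcript length and by the size of its library, and the level given for each gene is the mean of whichever treatment was higher. No gene of the 42 was at least 1.5-fold higher with OSSL_325096, where 4.95% of all genes were, and 1 was at least 1.5-fold lower, where also 4.95% of all genes were. That gene was ULK1, the kinase that starts autophagy. With a smaller margin of 0.32 on the log2 scale, 2 were higher (CTSA and SQSTM1; 16.4% of all genes) and 7 were lower (15.2% of all genes). The 7 were ULK1, WIPI1, MAP1LC3B, GABARAPL1 and 3 subunits of the proton pump. Of the 42, 13 had a fold change above 0 (51.0% of all genes) and 29 below 0 (49.0% of all genes).

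No difference passed a test. The smallest unadjusted p-value among the 42 in the authors' deposited table was 0.477, for ULK1, and 0 of them had an unadjusted p under 0.05, against 5 of the 11324 genes (0.0442%). After Benjamini-Hochberg adjustment of those p-values over the 11324 genes, 0 of the 42 and 0 of all genes were under 0.05, and the deposited false discovery rate was 0.999995 for each. A standard error (SE) implied by each fold change and its p-value was larger than the fold change itself for 42 of 42 genes, with a median of 1.00 on the log2 scale. With that SE, an unadjusted p of 0.05 is reached at a 3.90-fold difference. Each treatment's 2 libraries came from different lines, so this SE can hold the difference between lines. It need not be the error of the treatment effect. The share of all genes with an unadjusted p under 0.05 (0.0442%) was also far below what a test gives when nothing differs. In RNA from whole cultures, fewer cells expressing a gene and less of its RNA per cell cannot be told apart. The text below therefore gives values and their order, and higher and lower refer to the deposited fold changes only. Across all genes the fold changes also followed the GC content of transcripts. A joint trend with GC content, length and level was removed by regression, without separating the parts of length and level. Values with that trend removed are given where a direction turned.

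**Figure D1:**
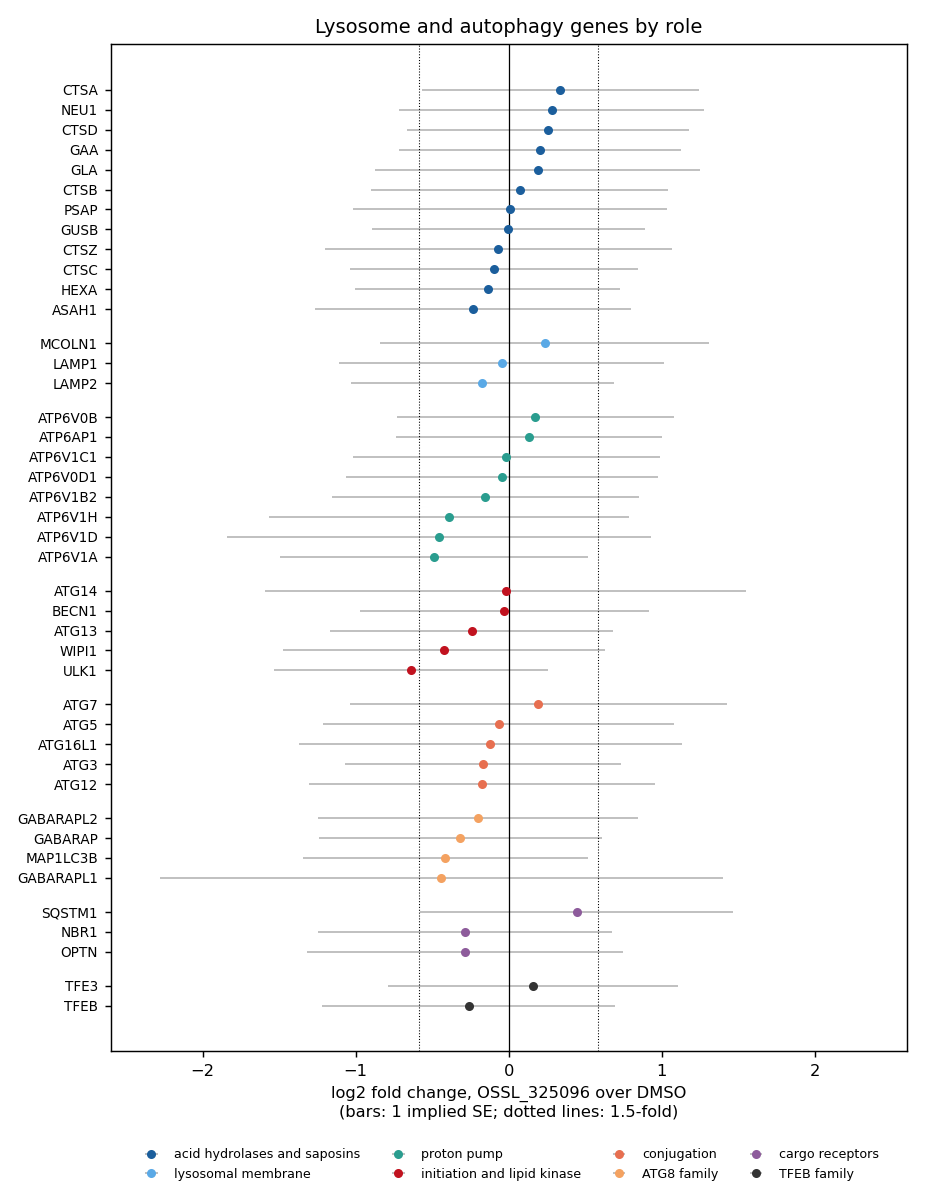
Horizontal axis: log2 fold change (OSSL_325096 over DMSO) of each of the 42 genes, grouped and coloured by role. Bars are 1 implied SE and dotted lines mark 1.5-fold; ULK1, at -0.64, is the only point beyond them, and every bar crosses 0.

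The cells had the plasma cell transcripts that the labels imply. All 7 plasma cell markers examined, among them SDC1, XBP1 and TNFRSF17, had means between 11.4 and 180 RPKM in the authors' deposited table. Of 6 matched markers of other cell types, CD3E, CD14, PAX5, COL1A1 and ALB stood at or below 0.121 RPKM, and EPCAM, an epithelial adhesion gene, had 15.8 RPKM in the authors' deposited table.

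All 42 genes were expressed above the minimum of 1 RPKM, and 33 of them above the median level of the genes kept. PSAP, the precursor of the saposins that help hydrolases reach lipids, was the most abundant at 121 RPKM in the authors' deposited table (97.1th percentile of the genes kept). The cathepsin genes CTSD and CTSZ followed at 71.8 and 66.1 RPKM there, beside LAMP1, a main glycoprotein of the lysosomal membrane, at 66.1 RPKM. SQSTM1 (44.2 RPKM) was the most abundant autophagy gene in the authors' deposited table. The lowest were ATG14, a subunit of the autophagy lipid kinase, at 1.45 RPKM and ATG7, the enzyme that activates ubiquitin-like proteins for autophagy, at 2.05 RPKM in the authors' deposited table. Conjugation genes had a median of 3.16 RPKM, acid hydrolases and saposins one of 21.3 RPKM.

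**Figure D2:**
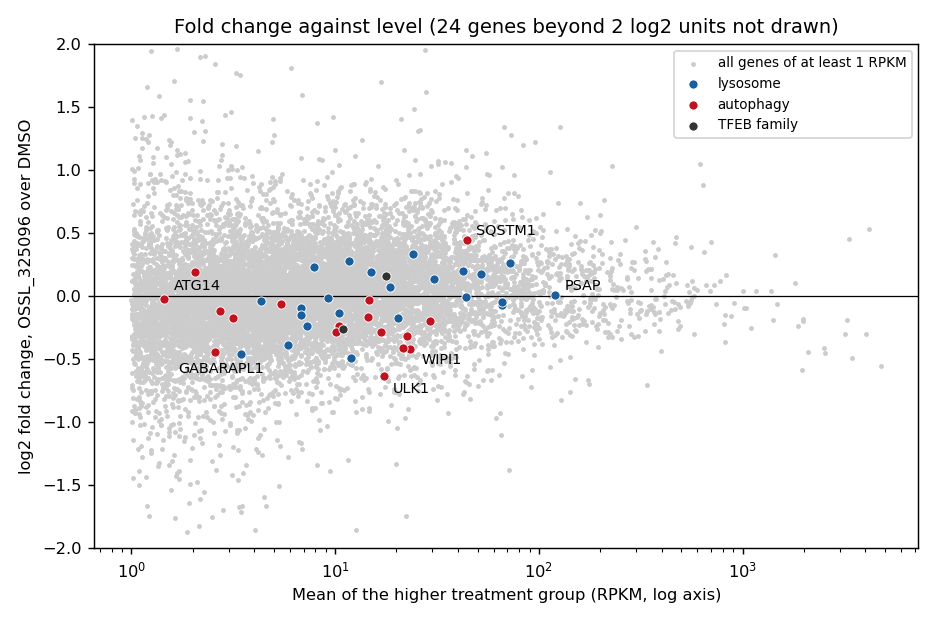
Log2 fold change (vertical axis) against the mean of the higher treatment group in RPKM (horizontal log axis), with all genes of at least 1 RPKM in grey, of which 24 lie outside the drawn range. Lysosomal genes (blue), autophagy genes (red) and the TFEB family (black) lie inside the grey cloud, between ULK1 at -0.64 and SQSTM1 at 0.44.

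Members of the TFEB family are known to bind the E-box CACGTG, and the longer CLEAR element, in which GT stands before and AC after the E-box, near the start of lysosomal genes. RefSeq promoter windows on GRCh38, covering 250 bases before and 50 after the gene start, were matched by symbol for 33 of the 42 genes. The genes CTSB, HEXA, PSAP, ASAH1, LAMP2, ATP6V1A, ATP6V1B2, ATP6V1C1 and ATP6V1H were not matched. Both motifs read the same on either strand. The E-box was present in 10 of the 33 windows (30.3%), against 7.43% of all 27305 windows of the same length, 10.7% of those of genes of at least 1 RPKM and 20.2% of those of the other lysosome and autophagy genes examined (the pathway list). The CLEAR element was in 2 of 33 (6.06%), GAA and MCOLN1, against 0.381% of all windows, 0.874% for genes of at least 1 RPKM and 6.38% for the pathway list. Among the matched lysosomal genes 8 of 14 had an E-box (57.1%), and among the matched autophagy genes 2 of 17 (11.8%), ATG3 and ATG14. The stretches below end at the base before the gene start, run 5′ to 3′ and have the E-box in capitals. They show how the motif is repeated in some lysosomal promoters, and ULK1 is added as the gene with the lowest fold change of the 42, with no E-box in its window.
LAMP1 (chr13:113297039-113297238, plus strand): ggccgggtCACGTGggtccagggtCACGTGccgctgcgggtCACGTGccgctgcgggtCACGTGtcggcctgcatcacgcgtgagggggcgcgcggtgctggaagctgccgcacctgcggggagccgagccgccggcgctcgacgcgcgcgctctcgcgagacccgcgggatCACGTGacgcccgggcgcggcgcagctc
GAA (chr17:80101491-80101580, plus strand): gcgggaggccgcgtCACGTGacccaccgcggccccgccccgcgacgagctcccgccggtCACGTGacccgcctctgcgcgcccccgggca
MCOLN1 (chr19:7522564-7522623, plus strand): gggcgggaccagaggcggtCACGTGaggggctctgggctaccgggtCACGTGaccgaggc
CTSA (chr20:45891275-45891334, plus strand): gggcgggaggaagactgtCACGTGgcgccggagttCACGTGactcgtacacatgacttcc
ATP6V0B (chr1:43974890-43974959, plus strand): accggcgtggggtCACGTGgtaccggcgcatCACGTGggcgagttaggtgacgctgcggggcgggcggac
ATP6V0D1 (chr16:67481158-67481237, minus strand): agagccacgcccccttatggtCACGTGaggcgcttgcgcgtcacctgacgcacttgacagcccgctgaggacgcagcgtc
NEU1 (chr6:31862822-31862971, minus strand): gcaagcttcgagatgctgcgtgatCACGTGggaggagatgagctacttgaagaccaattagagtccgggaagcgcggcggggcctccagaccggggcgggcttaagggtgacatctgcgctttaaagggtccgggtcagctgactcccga
ULK1 (chr12:131894522-131894621, plus strand): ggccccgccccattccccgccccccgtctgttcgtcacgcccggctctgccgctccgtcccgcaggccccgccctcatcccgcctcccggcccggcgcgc

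LAMP1 held 5 E-boxes in its stretch and another across the gene start, the most of any of the 33. GAA, MCOLN1, CTSA and ATP6V0B had 2 each, as did ATG3, whose stretch is not shown. Positions are those of the first base of the motif. In GAA both lay inside a CLEAR element, 76 and 31 bases before the start. NEU1 had its only E-box 126 bases before the start, farther than in CTSD (47 bases) or ATP6V0D1 (59 bases).

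Acid hydrolases and their helpers were divided about evenly between higher and lower, with 7 of 12 above 0 and a median of 0.04 (log2 fold change) in the authors' deposited table. With the trend removed, 4 of 12 were above 0 and the median was -0.07. CTSA, the protective protein that stabilises neuraminidase and beta-galactosidase (chromosome 20, 44518783 to 44527459, hg19), was highest with a log2 fold change of 0.34 (implied SE 0.90, 24.0 RPKM in the authors' deposited table). NEU1, the neuraminidase that removes sialic acid and works in complex with CTSA, had 0.28 there (implied SE 0.99, 11.7 RPKM). CTSD, the main lysosomal aspartic protease, had 0.26 in the authors' deposited table (implied SE 0.92), and -0.01 with the trend removed. CTSA stood at 0.15 with the trend removed. Exons of NEURL2 and PLTP on the other strand cover 11.1% and 3.81% of the CTSA exon bases. NEURL2 had 1.93 RPKM and PLTP 15.6 RPKM in the authors' deposited table. CTSA, NEU1 and CTSD all carry an E-box in the promoter window described above. GAA carries one too, and the other matched hydrolases, GLA, CTSC, CTSZ and GUSB, do not. Of all 10 members with an E-box, LAMP1, ATP6V0D1, ATG3 and ATG14 were below 0 as deposited.

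Next came glycosidases whose loss causes storage disease. GAA, the alpha-glucosidase that degrades glycogen, had 0.20 in the authors' deposited table and GLA, the alpha-galactosidase of globotriaosylceramide, had 0.19 there. GAA stood at -0.10 with the trend removed. CTSB, a cysteine protease, had 0.07 in the authors' deposited table, PSAP 0.01 (with the trend removed, -0.05 and -0.11) and GUSB, the beta-glucuronidase, less than 0.01 below 0 (-0.0043). The values of GUSB are uncertain because it has several pseudogene copies, of which GUSBP11 was the most abundant of those examined at 4.01 RPKM in the authors' deposited table. The lower members were CTSZ, a carboxypeptidase (-0.07), CTSC, which activates serine proteases of immune cells (-0.10; 0.01 with the trend removed), HEXA, the alpha subunit of hexosaminidase (-0.14), and ASAH1, the acid ceramidase (-0.24), in the authors' deposited table. None of these 12 genes was 1.5-fold from equal levels.

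Of the other lysosomal hydrolases and helpers in the pathway list, 11 of 30 genes were above 0, with a median of -0.06 in the authors' deposited table. Of the 30 only GALNS was at least 1.5-fold higher, where 4.95% of all genes were. GALNS removes sulfate from keratan and chondroitin sulfate and had log2 0.66 (implied SE 1.09, 2.98 RPKM) in the authors' deposited table. IDUA, the iduronidase of heparan and dermatan sulfate, had 0.52 there with a larger implied SE of 1.92.

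Of the lysosomal membrane genes, MCOLN1, the calcium channel through which lysosomes signal, was listed higher (0.23, implied SE 1.07) in the authors' deposited table. LAMP1, with the most E-boxes, had -0.05 there, and LAMP2, a receptor and membrane protein needed for fusion and for chaperone-mediated autophagy, had -0.17. Among 18 other membrane and transport genes, 10 were above 0, with a median of 0.04 in the authors' deposited table. TPCN1, an endolysosomal ion channel gene, had the highest value, 0.66 (implied SE 1.03) in the authors' deposited table. CLN3, a membrane protein lost in juvenile Batten disease (listed with a suffix, as 1 of 2 entries of that symbol), had 0.35 there.

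The proton pump has a cytosolic V1 sector that hydrolyses ATP and a membrane V0 sector that moves protons. All 5 V1 members were below 0 in the authors' deposited table. The catalytic subunit ATP6V1A (chromosome 3, 113465866 to 113530903, hg19) stood at -0.49 (log2; implied SE 1.01, 12.0 RPKM in the authors' deposited table), at the 7.27th percentile of fold changes of all genes kept. ATP6V1D, part of the central shaft, had -0.46 there (implied SE 1.38) and ATP6V1H, a regulatory subunit, -0.39 (implied SE 1.17). The nucleotide-binding subunit ATP6V1B2 had -0.15 and ATP6V1C1, a subunit of the stalk that links the sectors, -0.02 in the authors' deposited table. With the trend removed ATP6V1C1 stood at 0.16 and the other 4 stayed below 0.

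The V0 members and the accessory subunit lay nearer to or above 0. ATP6V0B, a proteolipid of the ring that carries protons, had 0.17, ATP6V0D1, which joins ring and shaft, -0.04, and ATP6AP1, an assembly factor of the pump, 0.13 in the authors' deposited table. ATP6V0B stood at -0.02 and ATP6AP1 at -0.07 with the trend removed. Together with the pump genes of the pathway list, 9 of 10 V1 genes were below 0, with a median of -0.33, and 3 of 8 V0 genes, with a median of 0.06, in the authors' deposited table. The exception in V1 was ATP6V1F, also the most abundant (0.26, 203 RPKM in the authors' deposited table). The lowest were ATP6V1C2 at -1.02 and ATP6V1G2 at -0.95 there, tissue-restricted isoforms that had 1.15 and 3.96 RPKM and implied SEs of 1.79 and 1.69. The V1 transcripts also had a lower GC content than the V0 transcripts, with medians of 44.6% and 57.7%. Once the trend was removed, the medians were -0.22 for V1 and -0.04 for V0, with 2 of 10 and 1 of 8 above 0.

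The 5 members that start autophagy were all below 0 in the authors' deposited table, and 4 of them with the trend removed, where ATG14 stood at 0.14. The ULK1 kinase receives signals from mTORC1 and AMPK; its gene (chromosome 12, 132379196 to 132407712, hg19) stood at -0.64 (log2; implied SE 0.90, 17.3 RPKM in the authors' deposited table). Only 4.07% of the genes kept had a fold change as low or lower. WIPI1, which reads the phosphoinositide on forming autophagosomes, had -0.42 (implied SE 1.05, 23.4 RPKM in the authors' deposited table), though its exons overlap those of ARSG on the other strand over 24.4% of their bases. No strand setting is stated, so reads of such overlapping partners cannot be told apart. ATG13, the ULK1 partner, had -0.24 in the authors' deposited table. BECN1 and ATG14, subunits of the class III phosphoinositide 3-kinase complex, had -0.03 and -0.02 there. Exons of FBXO34 on the other strand cover 20.8% of those of ATG14.

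Other initiation genes in the pathway list were below 0 in 10 of 15 cases, with a median of -0.21 in the authors' deposited table. PIK3C3, the catalytic subunit of that lipid kinase, had -0.64 (implied SE 1.27, 1.30 RPKM in the authors' deposited table), and ATG101, a stabiliser of ATG13 listed under the older symbol C12orf44, had the highest value, 0.39. Within the ULK1 complex, ULK1, ATG13 and RB1CC1 (-0.31, implied SE 0.94) were below 0 as deposited, and ATG101 above it.

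The conjugation enzymes, which attach ATG8 proteins to lipid in a manner like that of ubiquitin ligases, lay between -0.17 and 0.19. ATG12, a ubiquitin-like modifier, had -0.17 in the authors' deposited table, ATG3, the conjugating enzyme, -0.17, ATG16L1, the scaffold that sets the site, -0.12 and ATG5, the acceptor of ATG12, -0.07. With the trend removed 3 of the 5 were above 0, ATG12 at 0.05, ATG5 at 0.12 and ATG7. ATG7 was above 0 at 0.19 (implied SE 1.23) in the authors' deposited table, but 18.1% of its exon bases are shared with VGLL4 on the other strand, which had 9.37 RPKM in the authors' deposited table. The 6 other conjugation genes had a median of 0.01 in the authors' deposited table, with the protease genes ATG4B highest at 0.22 and ATG4C lowest at -0.19 (0.06 with the trend removed).

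The 4 ATG8 family genes encode the small proteins that are coupled to the autophagosome membrane, and all 4 were below 0 in the authors' deposited table, with a median of -0.37. GABARAPL2, the most abundant at 29.3 RPKM, had -0.20 (implied SE 1.05), GABARAP had -0.32 (implied SE 0.93, 22.4 RPKM) and MAP1LC3B, the LC3 protein used as a marker of autophagosomes, -0.41 (implied SE 0.93, 21.5 RPKM) in the authors' deposited table. GABARAPL1 was lowest at -0.44, but at 2.56 RPKM it had the largest implied SE of all 42 genes, 1.84, in the authors' deposited table. MAP1LC3B and GABARAPL1 have closely similar copies elsewhere in the genome, MAP1LC3B2 and GABARAPL3, listed at 0.156 and 0.0220 RPKM in the authors' deposited table. GABARAP shares 35.4% of its exon bases with an overlapping gene on the same strand, which had 2.26 RPKM there. With the same trend subtracted, all 4 were again below 0, with a median of -0.38.

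Cargo receptors bind ubiquitinated or other targets and ATG8 proteins at once. SQSTM1, the gene of p62, which is also a target of the oxidative stress factor NRF2, had the highest fold change of the 42 genes (chromosome 5, 179233388 to 179265078, hg19; 1.36-fold, log2 0.44, implied SE 1.02 in the authors' deposited table). With the trend removed, ATG7 was highest of the 42 at 0.29 and SQSTM1 stood at 0.21. The relatives in function of SQSTM1 lay on the other side of 0 in the authors' deposited table. NBR1 had -0.28 (implied SE 0.96) and OPTN -0.29 (implied SE 1.03) there. Exons of MRNIP on the other strand cover 21.0% of the SQSTM1 exon bases, and MRNIP had 3.68 RPKM in the authors' deposited table.

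Most other receptors of the pathway list were lower. Of 8 genes, 7 were below 0 (49.0% of all genes) and 3 were at least 1.5-fold lower (4.95% of all genes). Their median was -0.42 in the authors' deposited table. BNIP3 and BNIP3L, mitochondrial receptors known to be induced by hypoxia, had -0.81 (implied SE 1.38) and -0.68 (implied SE 1.23) in the authors' deposited table. FAM134B, a receptor for the endoplasmic reticulum, had -0.69 there, with an implied SE of 2.07 at 1.26 RPKM. TOLLIP was the 1 gene above 0, at 0.29 in the authors' deposited table. Over all 11 receptor genes, 2 were above 0 (SQSTM1 and TOLLIP), and with the trend removed 3 of 10 were.

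TFEB and TFE3 themselves lay on opposite sides of 0 as deposited. TFEB had -0.26 (implied SE 0.96, 10.9 RPKM) and TFE3 0.16 (implied SE 0.95, 17.7 RPKM) in the authors' deposited table. Both were below 0 with the trend removed, TFEB at -0.51 and TFE3 at -0.04. The related genes MITF and TFEC were under 1 RPKM and are not given. These proteins are controlled mainly by phosphorylation and location in the cell, which RNA levels do not measure.

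**Figure D3:**
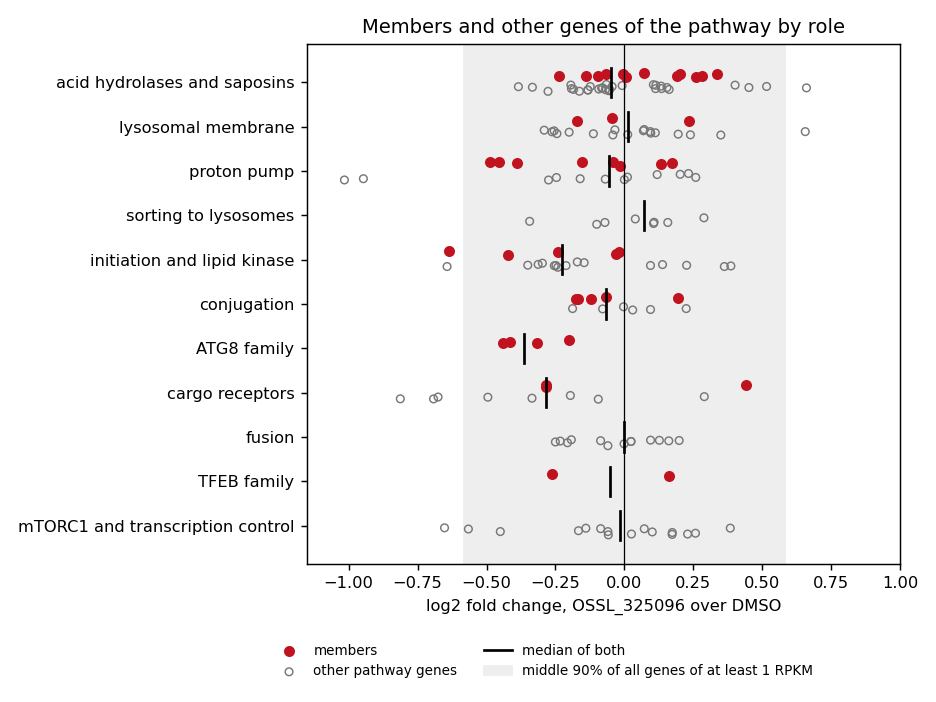
Horizontal axis: log2 fold change (OSSL_325096 over DMSO) of the 42 members (red) and 126 other genes of the pathway list with at least 1 RPKM (open circles) by role, with the median of both as a black line. Grey marks the middle 90% of all genes of at least 1 RPKM, between -0.58 and 0.58; ATG8 family and cargo receptor genes lie mostly left of 0, and hydrolase genes on both sides.

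Set side by side, the 23 lysosomal genes had a median of -0.02 with 10 above 0, and the 17 autophagy genes a median of -0.20 with 2 above 0, SQSTM1 and ATG7, in the authors' deposited table. GC content moved with this difference: the lysosomal transcripts had a median of 54.9% and the autophagy transcripts 47.9%. Across all 11104 genes with an annotated GC content, fold change and GC content had a Spearman correlation of 0.47, and across the 42 genes 0.45, both as descriptions of genes from the same libraries. After the trend was subtracted, the medians were -0.09 for the lysosomal and -0.12 for the autophagy genes. By count, 6 of the 23 lysosomal and 5 of the 17 autophagy genes were then above 0. ULK1 and TFEB were below 0 as deposited although their transcripts were rich in GC (65.3% and 62.7%). With the trend removed they lay further below, at -0.91 and -0.51 against the deposited -0.64 and -0.26.

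**Figure D4:**
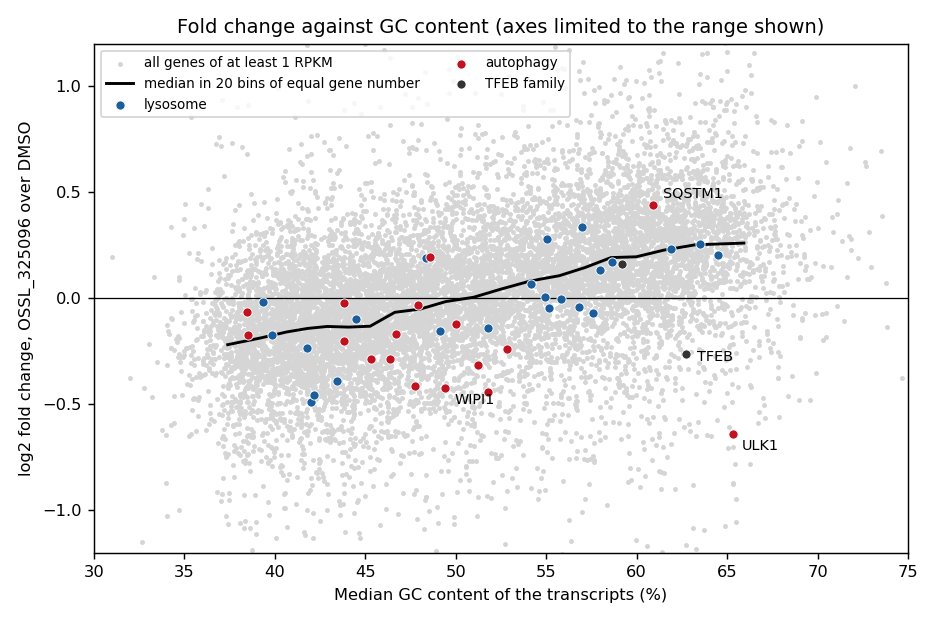
Log2 fold change (vertical axis) against the median GC content of a gene's transcripts in percent (horizontal axis), with all genes in grey, their median in 20 bins of equal gene number as a black line, and the members coloured by group. Lysosomal genes (blue, median 54.9%) tend to lie to the right of autophagy genes (red, median 47.9%), and ULK1 and TFEB lie below the line.

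The promoter motif was set beside the same values for the 33 members with a matched window. The members left out were all lysosomal, and of them only CTSB (0.07) and PSAP (0.01) were above 0 as deposited. The lowest of those left out was ATP6V1A at -0.49. The 10 members with an E-box had a median log2 fold change of 0.19, with 6 above 0, and the 23 without one had -0.17, with 5 above 0, in the authors' deposited table. Within the 14 matched of the 23 lysosomal genes the medians were 0.22 for the 8 with an E-box and -0.04 for the 6 without. Removing the trend gave -0.02 and -0.11 for these lysosomal genes. Transcripts of members with an E-box were richer in GC, with a median of 56.9% against 49.4% for those without. Over all matched members, the medians with the trend removed were -0.02 with and -0.15 without an E-box. Over all 8007 genes of at least 1 RPKM with a matched window, the medians were 0.05 for the 857 with an E-box and 0.01 for the 7150 without, as deposited. For the CLEAR element over the same genes the medians were -0.01 for the 70 with it and 0.02 for the 7937 without. In the pathway list the medians were 0.07 for the 19 genes with an E-box and -0.05 for the 75 without as deposited, and -0.14 and -0.04 with the trend removed. A match of these letters is a description of the window and does not show binding.

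**Figure D5:**
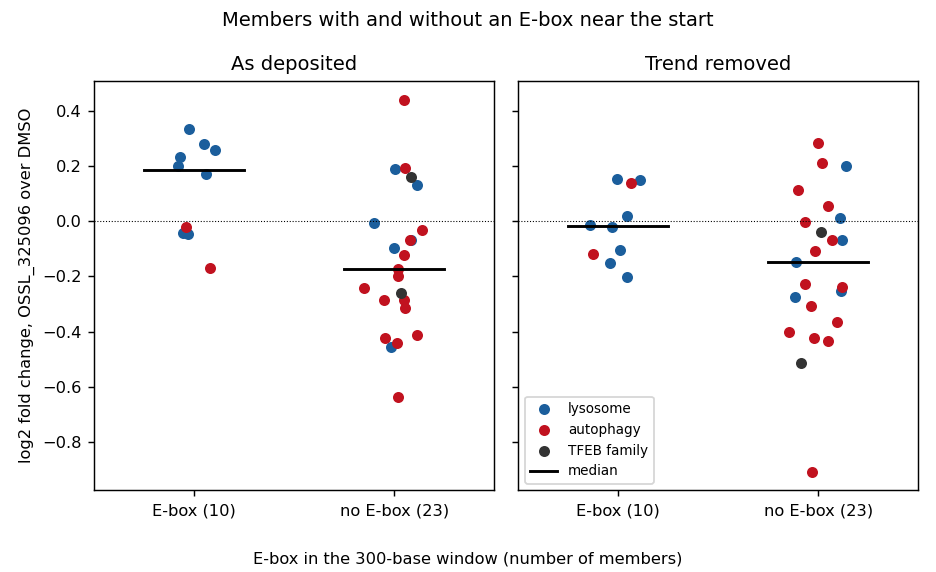
Log2 fold change of OSSL_325096 over DMSO for the 33 members with a matched 300-base promoter window, with (left) and without (right) an E-box. Values are as deposited (left panel) and with the GC content, length and level trend subtracted (right panel). Black lines are medians. The medians are 0.19 and -0.17 as deposited, and -0.02 and -0.15 with the trend removed.

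Over the whole pathway list, 54 of 126 other genes were above 0, with a median of -0.06 in the authors' deposited table. At the 1.5-fold margin 2 were higher and 7 lower there, where 4.95% of all genes lay in each direction. No gene of the list had an unadjusted p under 0.05, the smallest being 0.523. The list members named are those at least 1.5-fold from equal levels and the 2 most distant from 0 in each role. ATP6V1F, TOLLIP, RB1CC1, LAMTOR1 and LAMTOR2 were added after their values were seen.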

How the data were processed

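Libraries were made from poly(A)-selected RNA, per the labels' protocols. Per the series' design text, reads were mapped to hg19 and RPKM and the comparison computed in Biomedical Genomics Workbench 5; the labels name no scaling, counting rule, strand setting or model. The authors' deposited table holds 6 value columns and 0 columns of single libraries: an RPKM group mean, a log2 fold change, the same fold as a signed score, and p-values (unadjusted, false discovery rate, Bonferroni). The fold change is read as OSSL_325096 over DMSO from the order in the table's title. The planned limma fit needs single libraries, so the deposited values took its place.

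Genes of at least 1 RPKM were kept (11324 of 23130 with a fold change). The implied SE is the absolute log2 fold change over the normal quantile of its p-value, and is exact only for a two-sided normal test. GC content and length were medians over transcripts in GENCODE 44, available for 98.1% of the genes kept and all 42 members; polynomials up to degree 3 in GC content, log2 length and log2 RPKM explained 15.8% of the variance and were subtracted. This step was tested on simulated data with a trend in GC content only, of a form that the polynomials include. A trend in length or level was not simulated. Gene coordinates are as in the table, and 42 of 42 members overlapped their annotation entry on the same strand. The pathway list held 135 genes, all matched by symbol or Ensembl identifier, 126 of at least 1 RPKM. Members, lists and roles were chosen with earlier results of these data known, so lists are described by counts and medians. Nothing in the labels says that cultures were separate beyond the 2 lines. Named genes were all members, and pathway genes at least 1.5-fold from equal levels or among the 2 most distant in their role. The genes ATP6V1F, TOLLIP, RB1CC1, LAMTOR1 and LAMTOR2 were added after their values were seen. Python 3.11.15, pandas 2.3.3, numpy 2.4.6, scipy 1.17.1 and matplotlib 3.10.9 were used.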

Additional observations from a re-analysis of the deposited data

How the results depend on the processing

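No paired analysis was possible because the table holds no values of single libraries; for the same reason the cell line as a block, leaving out a library and another pseudocount were not run. Counts of members above 0 were 11 to 13 of 42 as deposited, with the median of all genes set to 0 or with the trend removed, and the count at least 1.5-fold lower was 1 in each, ULK1. At the margin of 0.32 on the log2 scale, 2 members were higher and 7 lower. Of the 126 other pathway genes, 9 were higher and 15 lower at that margin. Over all genes the shares were 16.4% higher and 15.2% lower. At 2-fold, 0 members were higher and 0 lower, and of the other pathway genes 0 were higher and 1 lower. The share of all genes at 2-fold was not computed. Among other pathway genes, a minimum of 5 RPKM left 1 of 94 at least 1.5-fold higher and 2 lower. Of all genes of at least 5 RPKM, 7.21% were beyond 1.5-fold in either direction. Removing the trend left 0 of 125 higher and 4 lower, against 2 and 7 of 126 as deposited. The share of all genes beyond 1.5-fold with the trend removed was not computed. This drop is therefore not set against that of all genes. Removing the trend changed the sign of 12 of the 42 fold changes and setting the median to 0 changed 1. All shifts were below the implied SE, but that SE exceeded each deposited fold change of the 42. This comparison therefore gives no assurance about the signs. Removing the trend also turned the median of the acid hydrolases to -0.07 and of the conjugation genes to 0.05. An alternative chosen after seeing the data left out the 14 members whose exons overlap another gene of at least 1 RPKM: the lysosomal median was then -0.03 over 20 genes and the autophagy median -0.24 over 6. The adjusted and the deposited false discovery rate both called 0 members. With 2 libraries a treatment, 1 from each line, the implied SE limits every value here and can hold the difference between lines.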

Other observations

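Genes of mTORC1 and its lysosomal recruitment, listed together with the transcription factors FOXO3 and ZKSCAN3, were evenly divided: 8 of 16 were above 0, with a median of -0.02 in the authors' deposited table. FNIP1, the partner of folliculin, had -0.65 (implied SE 1.09) and LAMTOR3, a subunit of the Ragulator scaffold, -0.57 (implied SE 1.12) there. The other Ragulator genes were all above 0, between LAMTOR2 at 0.10 (-0.06 with the trend removed) and LAMTOR1 at 0.38 in the authors' deposited table. LAMTOR3 was chosen with FNIP1 by the naming rule and the other Ragulator genes after their values were seen.

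Genes that sort hydrolases to the lysosome had a median of 0.07 over 8 genes in the authors' deposited table, and -0.04 with the trend removed. The sorting receptor gene SORT1 was lowest at -0.34 and GGA2, a clathrin adaptor of the mannose 6-phosphate route, highest at 0.29 there. Fusion genes had a median of 0.00 over 13 genes. None was beyond 0.32 on the log2 scale in either direction, where 31.6% of all genes were. EPG5 and VPS33A, tethering factors, were lowest at -0.25 and -0.23 in the authors' deposited table.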
